A study of Mus musculus with 20 samples.

Results

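The enzymes that make serine and glycine and pass their carbon on to folate were described in the mouse liver across 6 groups of genotype and diet. They comprised 10 genes, listed by name from the known pathway, of 46078 genes in the table of counts. These were *Phgdh*, *Psat1* and *Psph* for serine synthesis, *Shmt2*, *Mthfd2*, *Mthfd1l* and *Aldh1l2* for the mitochondrial folate steps, and *Shmt1*, *Mthfd1* and *Aldh1l1* for the cytosolic ones. All 10 were in the table and passed the filter on low counts, *Phgdh* only through 2 livers of the group where it was highest, and counts cover the exons of a gene. In GRCm38 (GENCODE vM21), *Psat1* spans chr19:15904678-15947337, *Mthfd2* chr6:83305691-83325908, *Phgdh* chr3:98313170-98339990 and *Aldh1l2* chr10:83487450-83534140, each on the minus strand.

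Serine is made from the glycolytic intermediate 3-phosphoglycerate. PHGDH oxidizes it, PSAT1 transfers an amino group from glutamate, and PSPH removes the phosphate. SHMT1 in the cytosol and SHMT2 in mitochondria then convert serine to glycine and load the released carbon on tetrahydrofolate. In mitochondria MTHFD2 oxidizes this folate, MTHFD1L releases formate from it and ALDH1L2 burns it to CO2 with production of NADPH. In the cytosol MTHFD1 carries out the dehydrogenase, cyclohydrolase and synthetase reactions in a single protein, and ALDH1L1 oxidizes 10-formyl-tetrahydrofolate. The carbon units feed the synthesis of purines, thymidylate and methionine. Serine is also the partner of homocysteine in the route that makes cysteine, which the liver uses for GSH. PHGDH, PSAT1 and MTHFD2 are known in other settings as products of genes that ATF4, the transcription factor of the integrated stress response (ISR), switches on, and adult liver is rich in the cytosolic enzymes.

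The livers came from 20 male mice on a 129/C57BL/6 background, at least 9 weeks old when their diets began, and mRNA of each liver was sequenced. *Cse*, listed under its symbol *Cth*, encodes the last enzyme of cysteine synthesis. It was deleted in every cell of *Cse*-/- mice, so that these mice depended on dietary cysteine. Control mice were *Cse*+/- in the study's list of animals, whereas the sample labels call their genotype WT. All groups were fed a restricted ration of a defined amino acid diet. Livers were taken 2 days after the shift to the diet of each group, and the restriction was common to all groups, the controls included. Of the *Cse*+/- mice, 2 were given the control diet, 4 a diet without cysteine (no-Cys) and 3 one without tryptophan (no-Trp). Of the *Cse*-/- mice, 4 had no cysteine in their diet, 3 had no tryptophan, and another 4 had no tryptophan and were also given l-buthionine sulfoximine (BSO), which blocks the enzyme that starts GSH synthesis. No *Cse*-/- mouse was on the control diet. The mice are named as in the table, av01 to av22.

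Counts on genes ranged from 11785740 to 57986121 per library, with a median of 15252745, with at most 15436551 in the 8 libraries of the no-Cys diet. Levels are given as CPM, the counts of a gene scaled to a common library size with TMM factors. *Cth* checked the genotypes. It was between 88.4 and 332 CPM in *Cse*+/- livers and between 6.37 and 14.4 CPM in *Cse*-/- livers. Hepatocyte markers were abundant in every library, at a summed 38785 to 107722 CPM over 6 genes, and 3 of the *Cse*-/- no-Cys livers had the lowest sums. In that group 4 of the 6 hepatocyte markers (*Alb*, *Ttr*, *Apoa1* and *Serpina1a*, which encode secreted proteins) and 5 of 5 erythroid markers were lower than in *Cse*+/- no-Cys livers, while *Cps1*, a hepatocyte marker of the urea cycle, was higher. The erythroid markers summed to 69.1 to 114 CPM in the former and to 201 to 406 CPM in the latter. The 6 Kupffer cell markers had log2 fold changes of -0.67 to -0.19, none of which passed the test (adjusted p of 0.0886 or more). Of the cholangiocyte markers 1 of 4 was lower (summed 13.7 to 23.7 against 42.2 to 49.9 CPM), and of the stellate cell markers 2 of 5 (180 to 220 against 227 to 273 CPM). Of the pericentral hepatocyte markers 2 of 5 were higher (13644 to 15433 against 13360 to 15298 CPM), of the endothelial markers 1 of 5 was higher (134 to 148 against 140 to 174 CPM), and of 4 proliferation markers tested 1 was lower. In a bulk sample, fewer cells of a type and less RNA per cell cannot be told apart, and the part of cell composition in the results below was not tested.

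Of the *Cse*-/- no-Cys livers, av08 stood apart in several of these genes. It had the lowest *Psat1*, *Mthfd2*, *Mthfd1l*, *Aldh1l2* and *Phgdh* of its group and the highest *Shmt1*, *Mthfd1* and *Aldh1l1*. Its hepatocyte markers summed to 66076 CPM, against 38785 to 42138 CPM in the other 3 livers of the group. Counts of calls are therefore also given without it. Since av08 was picked by the levels of these same genes, larger differences or added calls without it are a description and no independent result.

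Promoter sequences from RefSeq (build GRCm38.p6) were found for 9 of the 10 genes, with 2 starts for *Psat1*, of which the upstream one is shown. They are shown for *Psat1* and *Mthfd2*, whose levels differed most between groups, for *Mthfd1*, the cytosolic counterpart of *Mthfd2*, and for *Phgdh*. Each run holds the 250 bases before a transcription start, written 5′ to 3′ on the strand of the gene. Capitals mark a match to the searched letters.
Psat1 (chr19:15925060-15925309, minus strand): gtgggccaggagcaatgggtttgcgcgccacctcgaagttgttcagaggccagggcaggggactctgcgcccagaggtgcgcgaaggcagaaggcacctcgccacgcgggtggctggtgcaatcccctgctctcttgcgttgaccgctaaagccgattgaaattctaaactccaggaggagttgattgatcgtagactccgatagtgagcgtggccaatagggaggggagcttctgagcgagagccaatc
Mthfd2 (chr6:83317605-83317854, minus strand): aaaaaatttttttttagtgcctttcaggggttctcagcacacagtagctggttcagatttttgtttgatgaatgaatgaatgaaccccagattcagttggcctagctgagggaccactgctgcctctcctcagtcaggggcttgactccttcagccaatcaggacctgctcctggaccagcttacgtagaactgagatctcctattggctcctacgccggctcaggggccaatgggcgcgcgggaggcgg
Mthfd1 (chr12:76254982-76255231, plus strand): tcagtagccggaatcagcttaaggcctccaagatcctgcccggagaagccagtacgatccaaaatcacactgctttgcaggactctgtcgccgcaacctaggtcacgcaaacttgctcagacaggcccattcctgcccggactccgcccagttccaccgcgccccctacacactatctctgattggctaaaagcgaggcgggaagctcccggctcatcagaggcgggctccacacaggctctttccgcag
Phgdh (chr3:98339970-98340219, minus strand): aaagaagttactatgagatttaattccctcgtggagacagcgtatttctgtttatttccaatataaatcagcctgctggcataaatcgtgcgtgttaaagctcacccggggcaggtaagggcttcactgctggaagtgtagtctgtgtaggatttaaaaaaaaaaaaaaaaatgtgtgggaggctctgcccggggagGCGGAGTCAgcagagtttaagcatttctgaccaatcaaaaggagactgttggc

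The windows were searched on both strands, from 250 bases before to 50 after the start, for 3 motifs, and only 1 of them had a match in the 9 genes. TGATGNAA, the core of the C/EBP-ATF response element bound by ATF4, was in 3.97% of 32851 mouse promoter windows and in none of the 9 genes. CACGTG, the E-box that reads the same on both strands and is bound by MYC among others, was in 7.15% of all windows and in none of the 9. TGACNNNGC, the core of the antioxidant response element, was in 12.4% of all windows and in those of 2 of the 9 genes, *Phgdh* (53 bases before the start, on the other strand) and *Psph* (5 bases after it, on the other strand). A match is a description of letters, and its absence says only that these letters are not in this window.

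In livers of mice that lacked both *Cse* and dietary cysteine, *Psat1* and *Psph* of serine synthesis and the 4 mitochondrial folate transcripts were higher than in *Cse*+/- livers on the same diet, whereas the 3 cytosolic transcripts did not pass the test. Of the 10 genes, 7 were higher and 0 were lower (edgeR quasi-likelihood test, adjusted over all genes, threshold 0.05). At an unadjusted p under 0.05, also 0 were lower, and the share of all genes at that rule was not computed. DESeq2 called 8 higher and 0 lower, and 3687 of all 14759 genes. With edgeR 23.8% of the 14759 genes tested were called in this comparison, 11.6% higher and 12.2% lower. The median log2 fold change was 1.10 over the 10 genes and -0.0093 over all genes. *Phgdh* passed the filter on low counts only through av06 and av07, livers of the group where it was high, so that its call is not counted as a result. Of the other 9 genes, 6 were higher and 0 lower (7 and 0 at an unadjusted p under 0.05 and by DESeq2), with a median of 0.87. By role, the higher genes were *Psat1* and *Psph* for serine synthesis, 4 of 4 for the mitochondrial steps and 0 of 3 for the cytosolic steps, where *Aldh1l1* was the 1 gene that passed at an unadjusted p under 0.05 and by DESeq2. Without av08, 6 of these 9 were again higher, and 3500 of all 14740 genes were called.

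**Figure D1:**
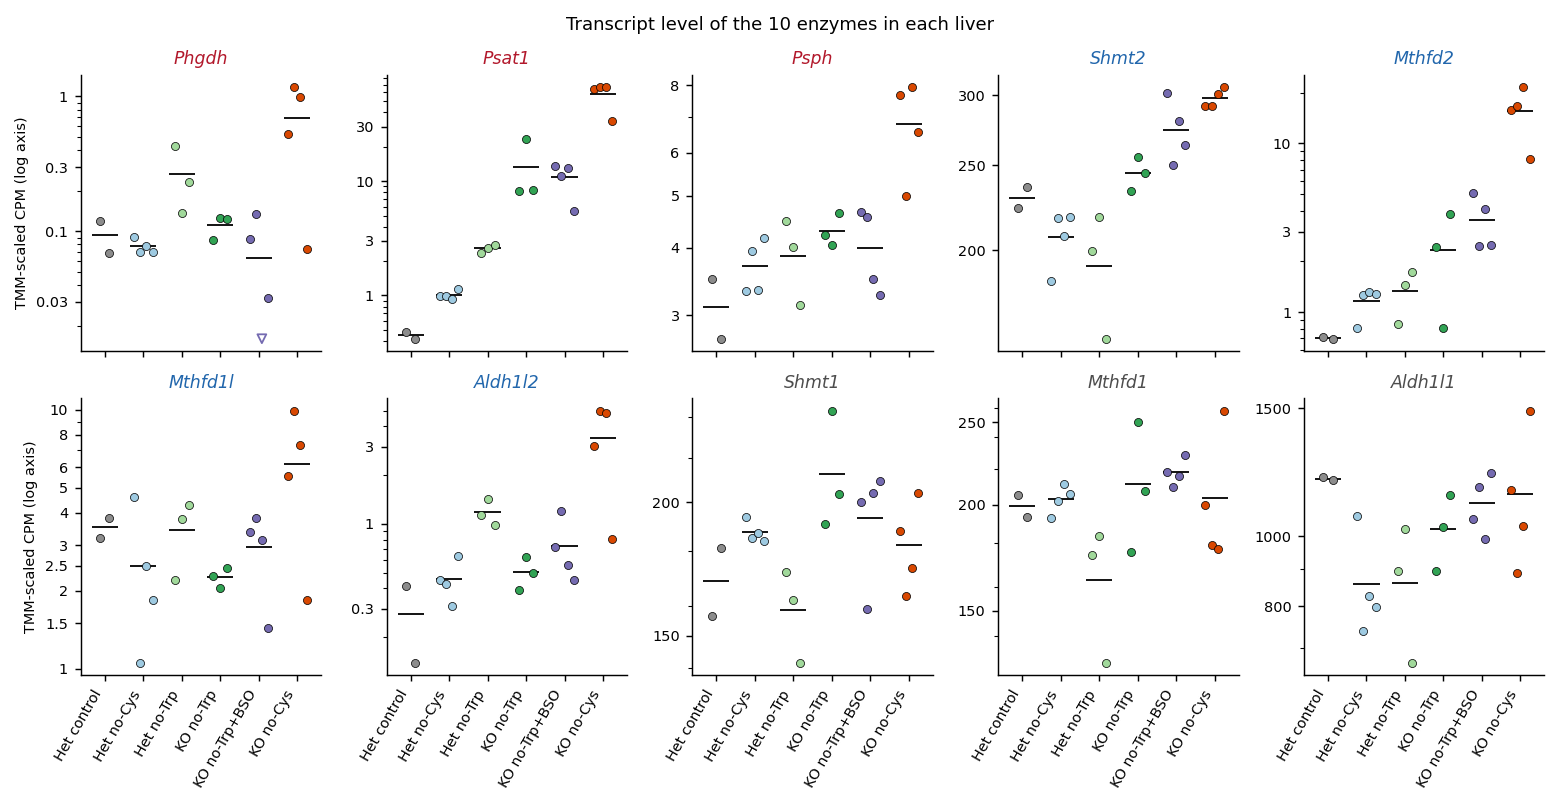
TMM-scaled CPM (log axis) of each gene in each liver, with a point per mouse and a bar at the group mean. Red titles are serine synthesis, blue mitochondrial and grey cytosolic genes, and the open triangle is a liver with 0 counts of *Phgdh*. *Psat1* and *Mthfd2* are highest in the *Cse*-/- no-Cys (KO no-Cys) livers, while the cytosolic genes overlap between *Cse*-/- and *Cse*+/- no-Cys livers.

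*Psat1* had the largest difference. It was 0.991, 0.988, 0.933 and 1.13 CPM in the 4 *Cse*+/- no-Cys livers (11 to 16 counts) and 64.5, 66.4, 66.7 and 33.8 CPM in the *Cse*-/- no-Cys livers (458 to 1093 counts). The groups were far apart, and even av08, the lowest of its group, was above every other liver in the study. The log2 fold change was 5.83 ± 0.40 (SE, adjusted p = 3.29e-08), which is 56.8-fold with a 95% interval of 31.7-fold to 102-fold, and it was 6.01 without av08.

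*Psph*, the last step of serine synthesis, differed by less. It was 3.34, 3.95, 3.34 and 4.17 CPM in *Cse*+/- and 7.67, 4.99, 7.94 and 6.57 CPM in *Cse*-/- no-Cys livers. The groups did not overlap, and av08 was not low in this gene. It differed by a log2 fold change of 0.87 ± 0.18 (SE, adjusted p = 0.00147). Of the *Psph* exons, 10.4% overlap *Cct6a* on the opposite strand, and the library kit does not mark strand.

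*Phgdh*, which opens the pathway, was near the limit of detection. Its counts were 1, 1, 1 and 1 in *Cse*+/- no-Cys livers and 9, 16, 16 and 1 in *Cse*-/- no-Cys livers. The single count was again in av08, so that the groups overlapped. The fitted log2 fold change was 3.08 ± 0.71 (SE), and 3.44 without av08, given with no test because *Phgdh* fell below the filter without av06 or av07. The ratio of summed counts, 42 against 4 and scaled for depth, was 9.11, with an exact 95% interval of 3.30 to 35.0 that covers counting error only. Of the 61-base words of its transcripts, 42.8% occur in 21 other genes, the *Gm7901* pseudogene foremost, so that its counts are uncertain.

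*Mthfd2* was the mitochondrial gene with the largest difference. It was 0.811, 1.27, 1.32 and 1.27 CPM in *Cse*+/- and 15.7, 16.6, 21.5 and 8.04 CPM in *Cse*-/- no-Cys livers. All 4 livers of the latter were above all others in the study. Its log2 fold change was 3.71 ± 0.39 (SE, adjusted p = 3.20e-06), or 13.1-fold, and 3.92 without av08.

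*Aldh1l2* was 0.451, 0.423, 0.311 and 0.637 CPM in *Cse*+/- and 3.01, 4.99, 4.84 and 0.812 CPM in *Cse*-/- no-Cys livers. The groups did not overlap, although av08 was close to the highest *Cse*+/- liver. It differed by a log2 fold change of 2.88 ± 0.47 (SE, adjusted p = 2.48e-04), and 3.20 without av08. Its counts were low (4 to 9 and 11 to 78), and 14.1% of its exons overlap *D10Wsu102e* on the opposite strand.

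*Mthfd1l* was 4.60, 1.06, 2.49 and 1.84 CPM in *Cse*+/- and 5.55, 9.90, 7.32 and 1.84 CPM in *Cse*-/- no-Cys livers. The groups overlapped, with av08 within the *Cse*+/- range. The log2 fold change was 1.33 ± 0.43 (SE, adjusted p = 0.0286). The call was lost without av02, av03, av04, av06 or av07, with adjusted p between 0.0550 and 0.109, and was kept without av08 (1.63, adjusted p = 0.00321). It was also lost when the other 4 groups were left out of the fit (1.33, adjusted p = 0.0748), which leaves 3 of the 4 mitochondrial genes.

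*Shmt2*, the gene that links serine to mitochondrial folate, changed little but uniformly. It was 184, 218, 208 and 218 CPM in *Cse*+/- and 292, 292, 301 and 306 CPM in *Cse*-/- no-Cys livers. The groups did not overlap, and av08 had the highest value. Its log2 fold change was 0.52 ± 0.09 (SE, adjusted p = 5.75e-04), or 1.44-fold, and 0.51 without av08.

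The 3 cytosolic counterparts did not pass the edgeR test. The 95% interval of *Aldh1l1* (0.09 to 0.73, log2) nonetheless overlapped that of *Shmt2* (0.33 to 0.72). *Shmt1* was 194, 185, 187 and 184 CPM in *Cse*+/- and 188, 163, 174 and 204 CPM in *Cse*-/- no-Cys livers, with a log2 fold change of -0.04 and a 95% interval of -0.26 to 0.18. *Mthfd1* was 193, 202, 212 and 206 CPM in the former and 200, 179, 177 and 258 CPM in the latter, with a log2 fold change of 0.0035 (-0.13 without av08) and an interval of -0.26 to 0.27. As folds, these intervals run from 0.837 to 1.13 for *Shmt1* and from 0.835 to 1.2 for *Mthfd1*. *Aldh1l1* was 1065, 740, 827 and 799 CPM in *Cse*+/- and 1158, 889, 1032 and 1488 CPM in *Cse*-/- no-Cys livers, and the groups overlapped. Its log2 fold change of 0.41 ± 0.15 (SE) did not pass the edgeR test (adjusted p = 0.0580) but passed that of DESeq2 (adjusted p = 0.0358). It also passed with edgeR when no filter on low counts was set (0.42, adjusted p = 0.0348), without av01 (0.53, adjusted p = 0.0198) and without av06 (0.51, adjusted p = 0.0260), so that 0 of 3 cytosolic genes became 1 of 3. Antisense *Gm15756* overlaps 11.05% of its exons. In av08, the liver with the highest *Aldh1l1*, *Psat1* and *Phgdh* were the lowest of the group and *Psph* was not, and the log2 fold change of *Aldh1l1* without it was 0.26.

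The pairs of isoenzymes were also compared within each library, where the ratio of their counts does not depend on scaling (log2, 0.5 added to each count). The *Shmt2* to *Shmt1* ratio was 0.71 ± 0.12 (SD, n = 4) in *Cse*-/- and 0.14 ± 0.15 (SD, n = 4) in *Cse*+/- no-Cys livers, with no overlap. The *Mthfd2* to *Mthfd1* ratio was -3.78 ± 0.85 and -7.42 ± 0.27 (SD, n = 4 each), again with no overlap. Both had the smallest p that 4 against 4 livers allow, 0.0286 in an exact two-sided permutation test, and an adjusted p = 0.0762 over the 8 tests made. The ratio of *Aldh1l2* to *Aldh1l1* differed by 2.15 (exact permutation p = 0.0857, adjusted p = 0.171) and that of *Mthfd1l* to *Mthfd1* by 1.26 (exact permutation p = 0.171, adjusted p = 0.196). In both of these av08 lay within the *Cse*+/- range, at -10.8 and -7.10, and without it the differences were 2.86 and 1.87. No ratio passed the threshold after adjustment. Against the *Cse*-/- no-Trp + BSO livers, the *Mthfd2* to *Mthfd1* ratio was higher by 2.22 (exact permutation p = 0.0286, adjusted p = 0.0762) and the others by 0.20 to 1.98 (exact permutation p between 0.114 and 0.200).

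**Figure D2:**
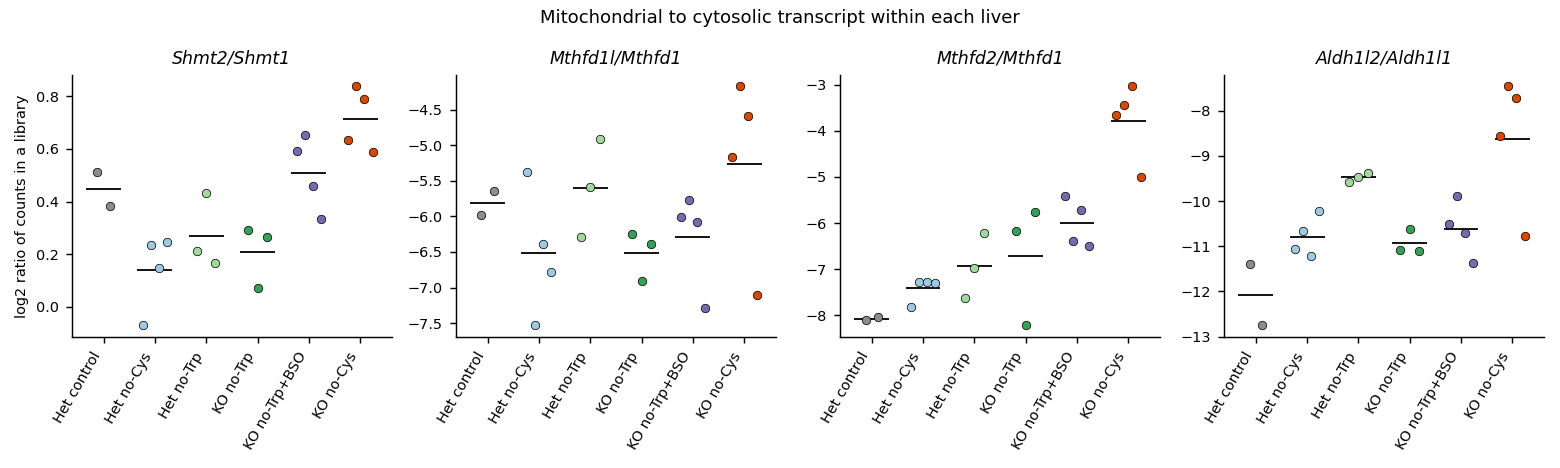
Log2 ratio of the counts of the mitochondrial to the cytosolic gene within each liver, with a point per mouse and a bar at the group mean. The *Mthfd2* to *Mthfd1* ratio is between -5.00 and -3.04 in *Cse*-/- no-Cys (KO no-Cys) livers and at most -5.42 in all others.

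The no-Cys diet was compared with the no-Trp diet in *Cse*-/- mice, to set missing cysteine against another missing amino acid. This comparison, the one before and the next share the 4 *Cse*-/- no-Cys livers. Of the 10 genes, 6 were higher on the no-Cys diet and 0 lower, against 10.4% of all genes called and 5.05% higher. In this comparison 3 of 6 hepatocyte, 3 of 5 erythroid and 1 of 4 cholangiocyte markers were lower, while 1 of 5 pericentral hepatocyte markers was higher and another was lower, and their part in the result was not tested. At an unadjusted p under 0.05, for which the share of all genes was not computed, 7 of the 10 genes were higher and 0 lower. DESeq2, with no value for *Phgdh*, called 6 others higher and 0 lower, *Shmt2* among them, and 1945 of all 14759 genes. Of the 9 genes other than *Phgdh*, 5 were higher, with a median of 0.66. *Psat1* was 8.24, 23.3 and 8.37 CPM in the no-Trp livers, all below the 33.8 CPM of av08, with a log2 fold change of 2.14 ± 0.33 (SE, adjusted p = 6.12e-04), 2.33 without av08 and 2.79 without av15. *Mthfd2* was 2.42, 0.810 and 3.81 CPM, with a log2 fold change of 2.67 ± 0.38 (SE, adjusted p = 3.51e-04), and 2.89 without av08. *Aldh1l2* was 0.388, 0.623 and 0.497 CPM, with a log2 fold change of 2.78 ± 0.48 (SE, adjusted p = 0.00146), and 3.09 without av08. Of the 10 genes, 5 were above the no-Trp livers in all 4 no-Cys livers, these 3 as well as *Psph* and *Shmt2*. The share of all genes without overlap was not computed.

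The calls of another 2 genes were weaker, at log2 fold changes of 0.66 for *Psph* (adjusted p = 0.0289) and 1.44 for *Mthfd1l* (adjusted p = 0.0465). That of *Mthfd1l* was lost when any liver of either group but av08 was left out (adjusted p between 0.0750 and 0.145), and that of *Psph* without av05, av07, av14, av15 or av16 (adjusted p between 0.0535 and 0.0973). In a fit of only these 2 groups both calls were lost (adjusted p = 0.0952 for *Mthfd1l* and 0.0782 for *Psph*). For *Phgdh*, the ratio of summed counts, 42 against 7 and scaled for depth, was 6.31, with an exact 95% counting interval of 2.81 to 16.6. Without av05, av07, av14, av15 or av16 only 3 of the 9 genes other than *Phgdh* were called, *Psat1*, *Mthfd2* and *Aldh1l2*. Without av08, 5 of the 9 genes other than *Phgdh* were again higher, and 1855 of all 14740 genes were called. *Shmt2* was 234, 256 and 245 CPM in the no-Trp livers, below all 4 no-Cys livers, but its log2 fold change of 0.28 ± 0.10 (SE) did not pass with edgeR (adjusted p = 0.0797) and passed with DESeq2 (adjusted p = 0.0389). The cytosolic genes had log2 fold changes of -0.22 for *Shmt1*, -0.05 for *Mthfd1* and 0.16 for *Aldh1l1*, none of which passed.

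In the comparison of the no-Cys diet with the no-Trp + BSO diet, both in *Cse*-/- mice, 5 of the 10 genes were higher and 0 lower, with 2.75% of all genes called and 1.33% higher. That 2.75% was between 0.352% and 6.97% with a library left out. Here 3 of 6 hepatocyte, 1 of 5 pericentral hepatocyte and 2 of 4 cholangiocyte markers were lower, and their part was again not tested. At an unadjusted p under 0.05, for which the share of all genes was not computed, 6 of the 10 genes were higher and 0 lower. DESeq2, with no value for *Phgdh*, called 4 higher and 0 lower, and 867 of all 14759 genes. Of the 9 genes other than *Phgdh*, 4 were higher, with a median of 0.76. *Psat1* was 13.6, 11.2, 13.0 and 5.54 CPM with BSO, all below the no-Cys livers, and its log2 fold change was 2.43 ± 0.30 (SE, adjusted p = 5.46e-04), and 2.61 without av08. *Mthfd2* was 5.09, 2.48, 4.07 and 2.50 CPM, again all below the no-Cys livers, with a 4.30-fold difference and a 95% interval of 2.67-fold to 6.92-fold (adjusted p = 0.00445). *Aldh1l2* was 0.715, 1.21, 0.562 and 0.448 CPM, a range that av08 fell into, and its log2 fold change was 2.27 ± 0.41 (SE, adjusted p = 0.00828), and 2.59 without av08.

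*Phgdh* had 5, 2, 0 and 1 counts with BSO, and the scaled ratio of summed counts, 42 against 8, was 10.3, with an exact 95% counting interval of 4.76 to 25.3. *Psph* was 4.66, 4.56, 3.51 and 3.27 CPM, with a log2 fold change of 0.76 ± 0.17 (SE, adjusted p = 0.0239). Its call was lost without av05, av07, av11 or av12 (adjusted p between 0.0657 and 0.0892). In each of these fits 3 of the 9 genes other than *Phgdh* were called. Without av08, *Mthfd1l* was called too (log2 fold change 1.38, adjusted p = 0.0206, against 1.08 and adjusted p = 0.139 with it), which made 5 of the 9. That fit called 1027 of all 14740 genes. *Shmt2* was 302, 250, 280 and 264 CPM with BSO, so that it overlapped the no-Cys livers, and its log2 fold change was 0.12 with a 95% interval of -0.08 to 0.32. *Shmt1* (-0.08), *Mthfd1* (-0.10) and *Aldh1l1* (0.04) did not pass either.

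**Figure D3:**
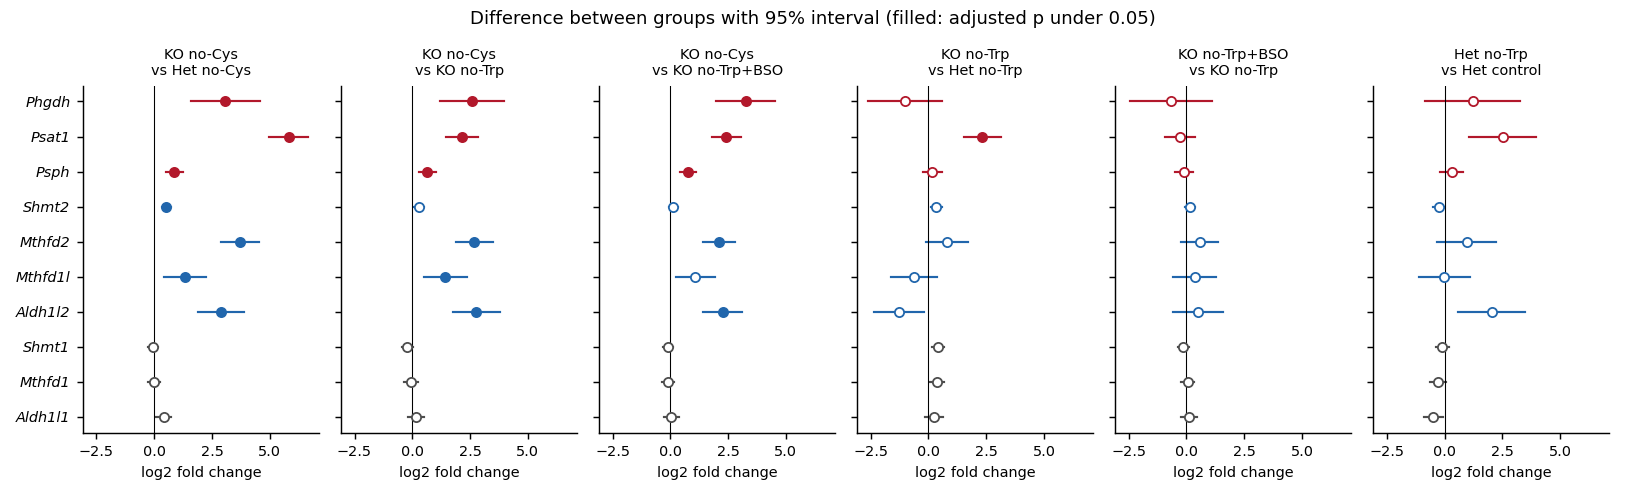
Log2 fold change of each gene in 6 comparisons with its 95% interval, KO being *Cse*-/- and Het *Cse*+/-. Filled points passed the test (that of *Phgdh* is not counted as a result), red marks serine synthesis, blue mitochondrial and grey cytosolic genes. The first 3 comparisons share the *Cse*-/- no-Cys livers and are not independent of each other.

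BSO added to the no-Trp diet gave no call among the 10 genes, where 0.793% of all genes were called (between 0.245% and 1.17% with a library left out). At an unadjusted p under 0.05, 0 of the 10 and 13.0% of all genes differed. DESeq2 called 0 of the 10, with no value for *Phgdh* and *Aldh1l2*, and 356 of all 14759 genes. The median log2 fold change was 0.08. For *Psat1* it was -0.28, with a 95% interval of -0.95 to 0.39 (0.36 without av15), and for *Mthfd2* 0.57, with an interval of -0.22 to 1.36, so that folds from 0.518 to 1.31 and from 0.861 to 2.56 remain possible. The intervals of *Shmt1*, *Shmt2*, *Mthfd1* and *Aldh1l1* lay between -0.37 and 0.47. *Psph* was at -0.11, with an interval of -0.49 to 0.28, *Mthfd1l* at 0.35 and *Aldh1l2* at 0.51, with an interval of -0.57 to 1.59.

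Between genotypes on the no-Trp diet, 1 of the 10 genes was higher in *Cse*-/- livers and 0 were lower, with 2.64% of all genes called and 1.40% higher. At an unadjusted p under 0.05, for which the share of all genes was not computed, 4 were higher and 1 was lower. DESeq2 called 3 higher and 0 lower, and 729 of all 14759 genes. The gene was *Psat1*, at 2.35, 2.63 and 2.76 CPM in *Cse*+/- against 8.24, 23.3 and 8.37 CPM in *Cse*-/- livers. Its log2 fold change was 2.33 ± 0.38 (SE, adjusted p = 0.00345), and in a fit of only these groups the adjusted p was 0.0501. Without av15 it was 1.67 (adjusted p = 0.0199). The liver with 23.3 CPM, av15, had the lowest *Mthfd2* of its group (0.810 CPM), so that the genes did not rank the 3 livers alike.

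*Aldh1l2* was in the other direction on this diet, at 1.14, 1.43 and 0.981 CPM in *Cse*+/- and 0.388, 0.623 and 0.497 CPM in *Cse*-/- livers. The groups did not overlap, yet the log2 fold change of -1.27 ± 0.52 (SE) did not pass (adjusted p = 0.192). *Phgdh*, given with no test, had 2, 2 and 3 counts in *Cse*-/- and 6, 6 and 5 in *Cse*+/- livers, a scaled ratio of 0.518 with an exact 95% interval of 0.181 to 1.31 that covers counting error only. *Shmt1* (142 to 172 CPM in *Cse*+/- and 191 to 243 CPM in *Cse*-/-) had a log2 fold change of 0.42 ± 0.12 (SE, adjusted p = 0.0639) and *Shmt2* one of 0.35 ± 0.11 (SE, adjusted p = 0.0881). Both passed with DESeq2 (adjusted p = 0.0192 and 0.0311), and without av14 *Shmt1* also passed with edgeR (adjusted p = 0.0483), which made 2 genes. The log2 fold changes of the others were 0.80 for *Mthfd2*, 0.37 for *Mthfd1*, 0.24 for *Aldh1l1*, 0.16 for *Psph* and -0.62 for *Mthfd1l*, and none passed (adjusted p of 0.174 or more).

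The difference between genotypes was then compared between the 2 diets, as an interaction. It was larger on the no-Cys diet for 4 of the 10 genes and smaller for 0, where 4.36% of all genes were called, 1.67% as larger. Of the markers, 2 of 6 hepatocyte and 1 of 5 erythroid ones were called smaller and 1 of 5 pericentral hepatocyte and 1 of 5 endothelial ones larger, and their part in the result was not tested. At an unadjusted p under 0.05, for which the share of all genes was not computed, 6 of the 10 genes were larger and 1 smaller. DESeq2, with no value for *Phgdh*, called 4 larger and 0 smaller, and 1060 of all 14759 genes. The log2 difference was 4.16 ± 0.70 for *Aldh1l2* (SE, adjusted p = 0.00272), 3.50 ± 0.57 for *Psat1* (adjusted p = 0.00221) and 2.91 ± 0.59 for *Mthfd2* (adjusted p = 0.00886). Without av08 these were 4.48, 3.68 and 3.12, and that of *Psat1* was 4.16 without av15. The fourth gene was *Phgdh*, fitted at 4.10 ± 1.07 (SE) and given with no test, since it passed the filter only through av06 and av07. Of the 9 other genes, 3 were called larger and 0 smaller (5 and 1 at an unadjusted p under 0.05, 4 and 0 by DESeq2). Without av08, 4 of these 9 were called, *Mthfd1l* with them (2.25, adjusted p = 0.0132, against 1.95 and adjusted p = 0.0856 with it). That fit called 1150 of all 14740 genes, against 643 of 14759 with av08. *Mthfd1l* was also called without av01 (2.41, adjusted p = 0.0307), with no filter on low counts (1.97, adjusted p = 0.0129) and by DESeq2 (adjusted p = 0.0286). For *Shmt2* the difference of 0.18 had a 95% interval of -0.12 to 0.48. *Shmt1* was at -0.46 ± 0.16 (SE, adjusted p = 0.104), and *Psph* (0.71, adjusted p = 0.136), *Mthfd1* (-0.37, adjusted p = 0.298) and *Aldh1l1* (0.17, adjusted p = 0.749) did not pass.

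Diet alone was compared in *Cse*+/- mice, where 0 of the 10 genes were called in any of 3 comparisons. Between the no-Cys and no-Trp diets 8.04% of all genes were called, and at an unadjusted p under 0.05 these were 4 of the 10 genes and 24.4% of all genes. DESeq2 called 1 of the 10 (*Psat1*) and 10.1% of all genes. *Psat1* was 0.933 to 1.13 CPM on the no-Cys and 2.35 to 2.76 CPM on the no-Trp diet, with no overlap and a log2 fold change of -1.35 ± 0.48 (SE, adjusted p = 0.0900). *Aldh1l2* was likewise lower on the no-Cys diet in every liver, by a log2 fold change of -1.38 ± 0.52 (SE, adjusted p = 0.107). In a fit of only these 2 groups both passed (adjusted p = 0.0144 and 0.0485), and *Psat1* also passed with no filter on low counts (adjusted p = 0.0150). The others were at 0.32 for *Mthfd1*, 0.24 for *Shmt1*, 0.11 for *Shmt2*, -0.0077 for *Aldh1l1*, -0.05 for *Psph*, -0.23 for *Mthfd2* and -0.52 for *Mthfd1l*, and *Phgdh* had 1 count in each no-Cys liver against 5 or 6.

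Against the control diet, the no-Cys diet gave 0 calls (2.18% of all genes), with 1 of the 10 genes and 16.6% of all genes at an unadjusted p under 0.05. DESeq2 called 0 of the 10 and 607 of all 14759 genes. The no-Trp diet also gave 0 (0.0474% of all genes, between 0.0131% and 0.0612% with a library left out), with 4 of the 10 genes and 9.29% of all genes at an unadjusted p under 0.05, and 1 of the 10 genes and 0.407% of all genes by DESeq2. That gene was *Psat1*, at 0.476 and 0.418 CPM (8 and 6 counts) in the 2 control livers. Its log2 fold change on the no-Trp diet was 2.52 ± 0.70 (SE, edgeR adjusted p = 0.255, or 0.0123 with no filter on low counts, DESeq2 adjusted p = 0.0151) and that on the no-Cys diet 1.16 ± 0.80 (SE, adjusted p = 0.492). *Aldh1l1* was lower than in both control livers (1205 and 1195 CPM) on either diet, with log2 fold changes of -0.48 ± 0.19 and -0.48 ± 0.20 (SE, adjusted p = 0.182 and 0.466). *Aldh1l2* was at 0.67 on the no-Cys and 2.05 on the no-Trp diet, *Mthfd2* at 0.74 and 0.97, *Psph* at 0.25 and 0.30, *Shmt2* at -0.15 and -0.26, *Shmt1* at 0.15 and -0.09, *Mthfd1* at 0.03 and -0.29, and *Mthfd1l* at -0.52 and -0.0057 (log2). None of these passed. The fitted value of *Phgdh*, given with no test, was -0.30 on the no-Cys and 1.21 on the no-Trp diet.

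Levels were set in order across genes as TMM-scaled CPM per kb of exon, a description of each group. *Aldh1l1* was highest in all 6 groups, at 190 to 266 CPM per kb, *Shmt2* next at 61.8 to 95.8, and *Shmt1* and *Mthfd1* followed at 36.7 to 54.7 with overlapping livers in each of the 6 groups. The other 6 genes were at most 0.794 CPM per kb in *Cse*+/- control livers. *Psat1* moved up by 3 places in this order and *Mthfd1l* down by 3, from 5 in *Cse*+/- control to 8 in *Cse*-/- livers. *Psat1* ranked 8 of 10 in *Cse*+/- control and no-Cys livers (0.105 and 0.238 CPM per kb), 7 in *Cse*+/- no-Trp (0.606), and 5 in all 3 groups of *Cse*-/- mice (2.54 to 13.6). It overlapped its neighbour *Mthfd2* in *Cse*+/- no-Cys and *Cse*-/- no-Trp + BSO livers and *Mthfd1l* in *Cse*+/- no-Trp livers. In *Cse*-/- no-Cys livers *Psat1* and then *Mthfd2* (4.43 CPM per kb) were apart from their neighbours. *Psph*, *Mthfd1l*, *Aldh1l2* and *Phgdh*, the next 4 in order at 1.57, 1.39, 0.455 and 0.279 CPM per kb, each overlapped the next. *Aldh1l2* and *Phgdh* were the lowest 2 in all 6 groups. The 3 cytosolic genes made up 75.7% to 84.5% of the summed CPM of the 10 genes in *Cse*-/- no-Cys livers, the highest in av08, and 83.3% to 88.2% in *Cse*+/- no-Cys livers.

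**Figure D4:**
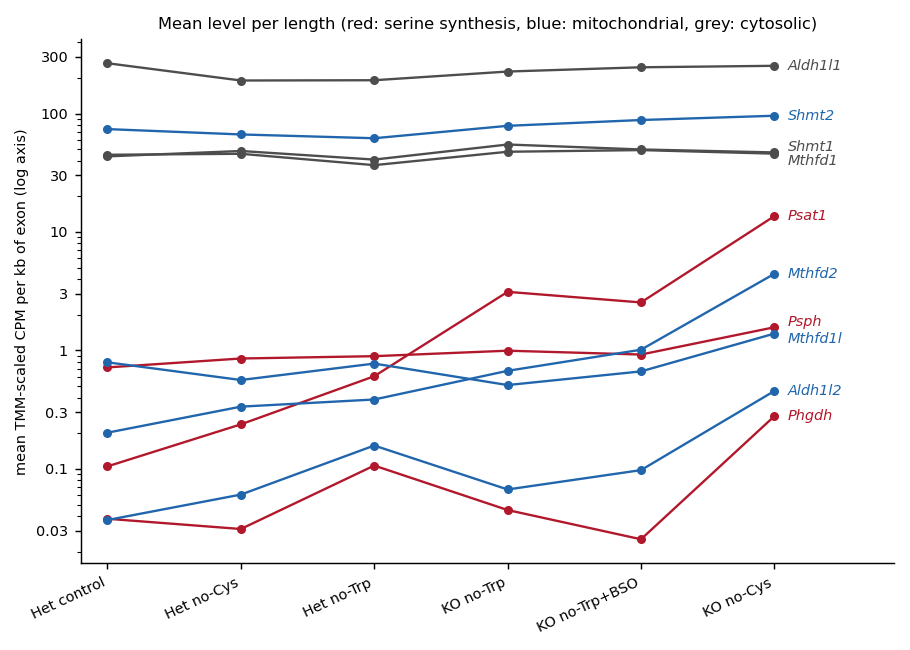
Mean TMM-scaled CPM per kb of exon (log axis) of each gene in each group, KO being *Cse*-/- and Het *Cse*+/-. Lines only join the means of 1 gene, since the groups have no order. *Aldh1l1* stays highest, and *Psat1* lies at 0.105 in *Cse*+/- control and at 13.6 in *Cse*-/- no-Cys livers.

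Over the 20 libraries, *Mthfd2* followed *Psat1* most closely among the 10 genes (Pearson r = 0.865 of log2 CPM), then *Psph* (0.778), *Shmt2* (0.752) and *Aldh1l2* (0.726), with *Mthfd1* lowest (0.166). The genes outside the pathway most like *Psat1* were *Krt18* (0.927), a keratin of epithelial cells, *Asns* (0.920), the asparagine synthetase, *Cgref1* (0.917), *Gm19619* (0.916) and *Extl1* (0.915). These values describe libraries that share group and depth.

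Other genes of serine, glycine and folate metabolism were read in *Cse*-/- against *Cse*+/- no-Cys livers. Of 14 genes of glycine and serine use tested, 3 passed, all of them higher, a share near the 23.8% of all genes called in this comparison (11.6% were higher). These were *Gldc*, the decarboxylase of the glycine cleavage system (log2 fold change 0.72, adjusted p = 0.0216), *Dld*, another subunit of that system (0.29, adjusted p = 0.0241), and *Srr*, the serine racemase (0.25, adjusted p = 0.0374). *Cbs*, which joins serine to homocysteine, was at 0.14 (adjusted p = 0.297). The median of the list was 0.16. Against *Cse*-/- no-Trp + BSO livers, and in the interaction, 0 of the 14 passed, where 2.75% and 4.36% of all genes were called. Against *Cse*-/- no-Trp livers, where 5.05% of all genes were higher and 5.35% lower, 4 of the 14 were higher, *Gldc* (1.05, adjusted p = 0.00973), *Cbs* (0.74, adjusted p = 3.51e-04), *Sdsl* (0.49, adjusted p = 0.0485) and *Amt* (0.31, adjusted p = 0.0430), and 1 was lower, *Gcsh* (-0.29, adjusted p = 0.0198), with a median of 0.01.

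Some genes of folate handling were read in the same comparison. Methionine synthase *Mtr* (0.78, adjusted p = 0.00715), the folate carrier *Slc19a1* (0.69, adjusted p = 0.00915) and the methionine synthase reductase *Mtrr* (0.44, adjusted p = 0.0113) were higher. *Mthfd2l*, a mitochondrial paralogue of *Mthfd2*, was lower (-0.75, adjusted p = 0.0340), as were the folate receptor *Folr2* (-0.50, adjusted p = 0.0252), known from macrophages, and the folate transporter *Slc46a1* (-0.27, adjusted p = 0.0383). *Mthfd2* and *Mthfd2l* thus differed in opposite directions.

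De novo purine synthesis, a main user of formyl-folate, had 4 of 6 genes higher and 1 lower, with a median of 0.55, where 11.6% of all genes were higher and 12.2% lower. *Pfas* (0.77, adjusted p = 0.00137), *Adsl* (0.66, adjusted p = 0.00990), *Gart* (0.63, adjusted p = 0.00387) and *Atic* (0.47, adjusted p = 0.0118) were higher, and *Ppat*, the committed step, was lower (-0.51, adjusted p = 0.00273). *Gart* and *Atic* encode the enzymes that use 10-formyl-tetrahydrofolate. Against *Cse*-/- no-Trp livers *Gart* passed (0.50, adjusted p = 0.0446). Against no-Trp + BSO livers *Pfas* (0.47, adjusted p = 0.0871), *Adsl* (0.44, adjusted p = 0.162) and *Gart* (0.35, adjusted p = 0.173) did not pass.

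Of 8 transporters of serine and glycine, 1 passed, the glycine transporter *Slc6a9*, which was higher (1.10, adjusted p = 9.24e-04). Of all genes 23.8% were called and 11.6% were higher. *Sfxn1*, the mitochondrial serine carrier, was at 0.0087 (adjusted p = 0.973). Of 3 regulators, *Nfe2l2*, which encodes NRF2, was lower (-0.41, adjusted p = 0.0157), while *Atf4* (0.41, adjusted p = 0.137) and *Myc* (0.89, adjusted p = 0.156) did not pass. The protein levels and activity of these factors were not measured by these data.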

How the data were processed

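Liver mRNA of 20 mice was sequenced, and the authors deposited raw counts per gene, made with HISAT2 2.1.0 and HTSeq 0.11.0 according to the submitters' processing notes. The library kit does not mark strand, so overlapping genes on opposite strands share reads. Of 21 columns in the table, 20 were matched to the labels and 1 was not used. Libraries held 11785740 to 57986121 counts, and pairs within a group differed by more than sampling noise (the chi-square divided by the number of genes was 9.60 to 64.2 in 25 pairs). Mice are the replicates.

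Counts were fitted in R 4.3.3 with edgeR 4.0.16 (TMM, filterByExpr with a minimum count of 10 and a minimum total of 15, quasi-likelihood test over 6 group means in all 20 libraries), with Benjamini-Hochberg adjustment over 14759 genes and a threshold of 0.05. DESeq2 1.42.0, other scalings, other filters, a fit of only the groups compared, a stricter threshold of 0.01, thinning to 11785740 counts and leaving out each library were alternatives. Within-library ratios were compared with exact permutation tests (scipy 1.17.1) over 70 arrangements, with adjustment over 8 tests. Levels between genes were divided by merged exon length in the GENCODE vM21 annotation of GRCm38, in which shared 61-base words were also counted. The models were tested on simulated data. All 10 genes were named in every comparison, and the 5 genes most like *Psat1* by Pearson r. The members and lists were chosen with earlier results of these data known. A result of the folate handling list is not reported here.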

Additional observations from a re-analysis of the deposited data

Results flagged for a closer look

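Among the 42 sets of 4 livers (a gene or ratio in a group) searched for a sample far from the others, 3 had one. This is near the number that chance gives, at about 1 in 20 sets. The sets are not independent, since the counts of a gene also enter its ratio. *Psat1* in the *Cse*-/- no-Cys liver av08 was 33.8 CPM, against 64.5 to 66.7 CPM in the other 3 livers of the group, a gap of 0.933 of the range. That liver also had the highest *Aldh1l1* and *Mthfd1* of its group and a hepatocyte marker sum of 66076 CPM, against 38785 to 42138 CPM in the others. Their part in the low *Psat1* was not tested. *Mthfd2* in the *Cse*+/- no-Cys liver av01 was 0.811 CPM from 9 counts, against 1.27 to 1.32 CPM in the others, and the *Mthfd2* to *Mthfd1* ratio of the same liver was -7.81, against -7.30 to -7.27 (log2).

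The difference between genotypes was not the same on both diets for *Aldh1l2*, *Psat1* and *Mthfd2*, by an interaction term in edgeR. The difference on the no-Cys diet minus that on the no-Trp diet was 4.16 for *Aldh1l2*, 3.50 for *Psat1* and 2.91 for *Mthfd2* (log2). The fitted value of *Phgdh*, 4.10, is given with no test, since the gene has low counts and passed the filter only through 2 livers where it was high. On the no-Trp diet *Aldh1l2* was lower in *Cse*-/- livers by a log2 fold change of -1.27, which did not pass (edgeR adjusted p = 0.192). *Phgdh* had 2 to 3 counts there in *Cse*-/- and 5 to 6 in *Cse*+/- livers. *Psat1* was called higher in *Cse*-/- livers on both diets.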

How the results depend on the processing

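No call changed direction. Of 1365 log2 fold changes recomputed, 1273 kept their direction and their side of the threshold, 43 lost a call, 19 gained one and 30, of 13 results that passed neither way, changed sign. For *Mthfd1* in *Cse*-/- against *Cse*+/- no-Cys livers (0.0035) these were -0.014 with upper-quartile factors, -0.0060 with a mean CPM of at least 1 and -0.00045 when only these groups were fitted. For *Mthfd1l* in *Cse*+/- no-Trp against control livers (-0.0057) they were, under the same alternatives, 0.0053, 0.0021 and 0.0090, then 0.013 with no filter and 0.070 when thinned. With a library left out, the log2 fold change ran from -0.098 to 0.0037 for *Shmt1* and -0.13 to 0.083 for *Mthfd1* in *Cse*-/- against *Cse*+/- no-Cys livers, -0.19 to 0.081 for *Mthfd1* against *Cse*-/- no-Trp, and -0.11 to 0.15 for *Aldh1l1* against BSO. It ran from -0.54 to 0.36 for *Psat1* (positive without av15) and -0.073 to 0.18 for *Mthfd1* in BSO against no-Trp. In *Cse*+/- no-Cys against no-Trp it ran from -0.18 to 0.045 for *Psph*, -0.0090 to 0.21 for *Shmt2* and -0.16 to 0.13 for *Aldh1l1*. In *Cse*+/- no-Cys against control it ran from -0.60 to 0.12 for *Phgdh* and -0.017 to 0.067 for *Mthfd1*, and in no-Trp against control from -0.19 to 0.025 for *Shmt1* and -0.17 to 0.21 for *Mthfd1l*. The 72 recomputed ratios kept their direction. Their tests say nothing of stability, since 4 against 4 livers allow no p below 0.0286 and the 3 of 8 tests at that value had an adjusted p = 0.0762. The 6 genes higher in *Cse*-/- no-Cys than *Cse*-/- no-Trp livers became 3 when only these 2 groups were fitted, 3 at an adjusted p under 0.01 and 3 to 6 with a library left out. The 5 higher than with BSO became 3 at an adjusted p under 0.01 and 3 to 6 with a library left out. The 1 gene higher in *Cse*-/- than *Cse*+/- no-Trp livers became 3 with DESeq2, 0 in a fit of only those groups and 1 to 2 with a library left out. For *Cse*+/- no-Cys against no-Trp, the count of lower genes went from 0 to 1 with DESeq2, 1 with no filter and 2 in a fit of only those groups. For *Cse*+/- no-Trp against control, the count of higher genes went from 0 to 1 with DESeq2 and 1 with no filter. With a library left out, 5 to 8 genes were higher in *Cse*-/- than *Cse*+/- no-Cys livers and 3 to 5 in the interaction. Without *Phgdh* these ranges were 5 to 7 and 3 to 4, and 3 to 5 both against *Cse*-/- no-Trp livers and against BSO. The cause of these shifts was not tested, except that fewer samples or a stricter threshold were part of some. Leaving out 1 *Cse*+/- control liver leaves a lone liver assumed to vary like the other groups. The percentage of all genes called moved as well, between 11.1 and 27.4 for *Cse*-/- against *Cse*+/- no-Cys livers over all alternatives. With a library left out it was between 4.65 and 12.6 for *Cse*-/- no-Cys against no-Trp, 0.245 and 1.17 for BSO against no-Trp, 0.742 and 2.87 between genotypes on no-Trp, 4.05 and 9.01 for *Cse*+/- no-Cys against no-Trp, 0.0655 and 2.84 for *Cse*+/- no-Cys against control, 0.0131 and 0.0612 for *Cse*+/- no-Trp against control, and 2.38 and 7.80 for the interaction. Thinning to equal depth ended 2 calls, both of *Phgdh*. No paired analysis was possible because the columns carry no replicate number that is shared between groups.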
